A study of Mus musculus with 8 samples.

Results

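The genes described here are 49 genes of the G2 and M phases of the cell cycle, taken by name from a deposited table of 35072 mouse genes: kinases, cyclins and phosphatases that start mitosis, the spindle checkpoint and the ubiquitin ligase it restrains, the chromosomal passenger complex, kinetochore proteins, spindle motors, cytokinesis factors and the condensin complex. All 49 were found in the table and all 49 passed the filter on low counts that left 13299 genes for testing. The RNA came from wildtype mouse CD8 T cells of spleen and lymph nodes. Formate-treated cells were activated as naive cells with antibodies to CD3 and CD28 plus interleukin-12 for 18 h and then held for 24 h with 2 mM formate, a small one-carbon acid that cells use to build purines and thymidylate (4 libraries). Control cells had the same activation and received PBS for those 24 h (4 libraries). The comparison asks whether this addition changed the mitotic transcript programme of dividing CD8 T cells.

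Activated T cells divide within a day or so of stimulation, and their mitotic transcripts rise late in each cycle, when the MuvB complex, with B-MYB and FOXM1, switches on genes that it holds silent in resting cells. The kinase CDK1 with cyclins A and B, helped by the Polo-like and Aurora kinases, then condenses the chromosomes and builds the spindle. The spindle checkpoint keeps the anaphase-promoting complex (APC/C) waiting until every kinetochore is attached, and the APC/C with its partner CDC20 then marks cyclin B and securin for destruction. Many of these transcripts share promoter elements, chiefly CCAAT boxes bound by NF-Y and the cell cycle homology region (CHR) bound by MuvB.

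The libraries held between 29361986 and 41393093 estimated counts. Summed CD8 T cell markers stood at 1372 ± 17.0 CPM (counts scaled to the size of the library) in formate libraries and 1383 ± 86.3 CPM in control libraries (SD, n = 4 each), with Cd8a, Cd8b1 and the CD3 chains present throughout. Summed B cell markers ranged from 14.3 to 25.7 CPM in formate libraries and 13.7 to 22.7 CPM in control libraries, and CD4 T cell markers from 8.74 to 15.7 CPM in formate libraries and 7.97 to 15.3 CPM in control libraries. Myeloid and dendritic markers stayed at or under 2.67 CPM in every library and erythroid markers at or under 0.650 CPM, with Hba-a1 at 0 in all 8. Stromal markers summed to 17.3 to 22.6 CPM in formate libraries and 17.2 to 23.7 CPM in control libraries. Nearly all of that was Pecam1 (means of 19.3 CPM with formate and 18.9 CPM without), while Cdh5 was at 0 in all 8. The natural killer list summed to 35.2 to 79.8 CPM in formate libraries and 43.3 to 89.1 CPM in control libraries, nearly all of it Eomes, which CD8 T cells also make, while Ncr1, Klrb1c and Klrb1f never exceeded 0.228 CPM. In the paired fit introduced below, Eomes was lower with formate in 4 of 4 pairs (55.3 ± 18.9 CPM with formate and 66.6 ± 20.4 CPM without, -0.28, adjusted p = 0.00468). The B cell marker Ms4a1 was higher in 4 of 4 pairs (3.67 ± 1.91 CPM with formate and 2.39 ± 1.16 CPM without, 0.62, adjusted p = 0.0275). The other 5 B cell markers did not pass, and with another test (DESeq2) and the same pairs none of the 6 did. The part of the Eomes and Ms4a1 shifts in the results on mitotic genes was not tested. Transcripts of the mitochondrial genome took 0.702% ± 0.152 of the counts in formate libraries and 0.462% ± 0.0705 in control libraries, higher in 4 of 4 pairs of neighbouring codes; the part of this difference in the results below was not tested.

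The libraries' titles carry codes, and each formate code stands next to a control code: 11 beside 10 (library 1 of each group), 14 beside 13 (libraries 2), 2 beside 1 (libraries 3) and 8 beside 7 (libraries 4). No label says that neighbours came from the same animal or culture. The data were therefore fitted both without pairs, as the labels stand (the unpaired fit), and with 1 term for each pair of neighbours (the paired fit). The answer for the mitotic genes depends on which is used. In the unpaired fit none of the 49 genes passed an adjusted p of 0.05 (edgeR's quasi-likelihood test), where 1 of all 13299 genes did (0.00752%). In that fit 6 of the 49 had an unadjusted p under 0.05, as did 634 of all 13299 genes. DESeq2 without pairs likewise called none of the 49, where it called 11 of all 13299 genes higher and 10 lower. In the paired fit 20 of the 49 passed: 17 were lower with formate, where 7.52% of all tested genes were, and 3 were higher, where 5.35% were. The words fell and rose below refer to the paired fit alone, in which 29 genes did not pass. With the library set (codes 10 to 14 or codes 1 to 8) as the sole covariate, no mitotic gene passed and 18 had an unadjusted p under 0.05, as did 1686 of all 13299 genes.

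The changes were small. Taken as a whole, the 49 transcripts summed to 6988, 7199, 7521 and 7450 CPM in formate libraries 1 to 4, against 7840, 7856, 7770 and 7707 CPM in control libraries 1 to 4. Every formate library lay below every control library in this sum, and the means were 7290 ± 244 CPM with formate and 7793 ± 68.3 CPM without (SD, n = 4 each). This separation held only after scaling between libraries (TMM), whose factor was higher with formate in 4 of 4 pairs. As a share of unscaled counts the groups overlapped, at 0.718% to 0.761% with formate and 0.754% to 0.783% without. That share was lower with formate in 4 of 4 pairs. The median log2 change of the 49 genes was -0.10 in the paired fit and -0.11 in the unpaired fit, beside a median of 0.00 and -0.01 over all tested genes. In the paired fit the estimates ran from -0.35 for Plk1 to 0.26 for Mad2l1, with 38 below 0 and 11 above. By pair, the median change of the members was -0.20 for codes 10 and 11, -0.17 for codes 13 and 14, -0.05 for codes 1 and 2 and -0.05 for codes 7 and 8. Thus 26 of the 49 genes were lower with formate in 4 of 4 pairs, as were 2587 of the 13299 tested genes, and 4 were higher in all, as were 2129. In bulk RNA, fewer cells in mitosis and less of these transcripts in each cell cannot be told apart.

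**Figure D1:**
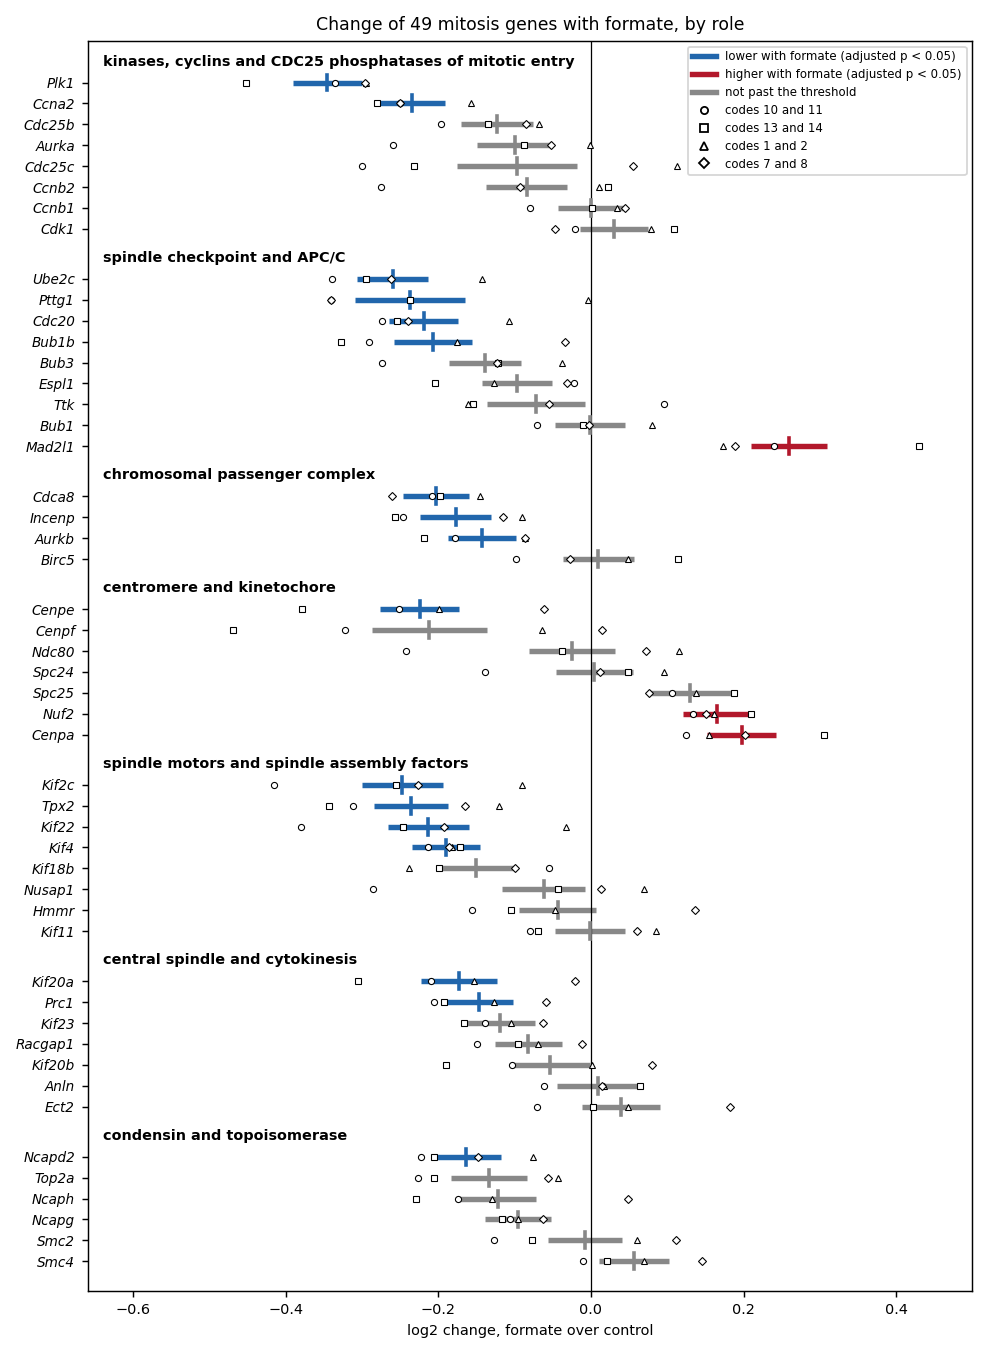
Log2 change (formate over control, horizontal axis) of each of the 49 genes, grouped by role. Vertical ticks with thick bars give the paired estimate ± its standard error, coloured by call (adjusted p under 0.05), and open symbols give the 4 pairs of neighbouring codes. Most estimates lie left of 0, between -0.35 (Plk1) and 0.26 (Mad2l1), and 3 genes lie to the right past the threshold.

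Promoters of 6 genes that passed in the paired fit are shown next, picked for holding CHR or CCAAT elements, which this gene group is known to share. RefSeq windows (GRCm38.p6, 250 bases before to 50 after the annotated start) were at hand for 41 of the 49 genes, in 44 windows. The stretches run from 120 bases before the start to 30 bases after it, on the strand of the gene, for the 6 called genes with a CHR or at least 2 CCAAT boxes and the smallest p. Ccna2 and Tpx2, without a window, and Mad2l1, with neither motif, are not shown although their adjusted p was smaller than that of Cdc20. Capitals mark CHR matches (TTTGAA or TTCGAA, or TTCAAA or TTCGAA on the other strand) and CCAAT boxes (CCAAT, or ATTGG on the other strand). Plk1 lies at chr7:122159315-122159464 (plus strand), Ube2c at chr2:164769809-164769958 (plus), Cdc20 at chr4:118437314-118437463 (minus), Cdca8 at chr4:124936888-124937037 (minus), Kif2c at chr4:117178743-117178892 (minus) and Cenpa at chr5:30666766-30666915 (plus).
Plk1: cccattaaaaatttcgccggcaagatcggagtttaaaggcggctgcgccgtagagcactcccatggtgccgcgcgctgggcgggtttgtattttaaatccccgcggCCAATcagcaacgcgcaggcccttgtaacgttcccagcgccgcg
Ube2c: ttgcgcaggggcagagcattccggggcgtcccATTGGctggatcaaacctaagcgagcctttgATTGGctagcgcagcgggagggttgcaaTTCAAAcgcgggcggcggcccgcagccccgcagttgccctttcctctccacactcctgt
Cdc20: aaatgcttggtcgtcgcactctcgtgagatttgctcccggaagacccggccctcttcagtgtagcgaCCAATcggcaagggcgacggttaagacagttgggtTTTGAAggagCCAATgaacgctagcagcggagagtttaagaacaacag
Cdca8: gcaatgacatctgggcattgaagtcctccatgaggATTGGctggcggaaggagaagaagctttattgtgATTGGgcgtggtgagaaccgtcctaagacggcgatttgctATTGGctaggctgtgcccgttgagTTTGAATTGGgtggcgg
Kif2c: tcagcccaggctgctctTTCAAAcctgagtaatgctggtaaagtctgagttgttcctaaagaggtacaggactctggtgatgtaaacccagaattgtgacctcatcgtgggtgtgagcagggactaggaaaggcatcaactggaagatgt
Cenpa: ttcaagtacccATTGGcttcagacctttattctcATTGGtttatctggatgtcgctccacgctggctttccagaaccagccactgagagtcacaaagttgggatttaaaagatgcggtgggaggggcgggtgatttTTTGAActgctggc
The Plk1 CHR begins at base 31 after the start, just past the stretch shown. In Cdca8 the last base of the CHR is also the first base of an inverted CCAAT box. The CHR lies at bases -29 to -24 in Ube2c, -18 to -13 in Cdc20, 14 to 19 in Cdca8, 17 to 22 in Cenpa, and at -103 to -98 in Kif2c, which has no CCAAT box in its window. The Kif2c and Cdca8 starts used here lie inside the annotated spans of these genes, not at their upstream ends. Those spans are chr4:117159639-117182639 for Kif2c and chr4:124918465-124939311 for Cdca8, both on the minus strand. The starts used for Cenpa, Ube2c and Cdc20 also lie inside the spans of their genes, but nearer to the upstream ends. Which start these cells use was not tested.

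A CHR match was found in 81.8% of the members' windows, a CCAAT box in 77.3% and both in 72.7%. Over all 32851 mouse windows of that length the shares were 19.2%, 37.4% and 7.52%, and over the 12213 windows of tested genes they were 14.1%, 38.1% and 5.95%. At least 2 CCAAT boxes stood in 50% of the members' windows and in 11.7% of all windows. Matches were counted in each window, so sites in the overlapping windows of Bub3, Ect2 and Prc1 count more than once. Of the 48 CHR matches so counted, 34 began between 60 bases before and 40 bases after the start, with a median first base of -1. The 74 CCAAT matches had a median first base of -66. Other lists of cell cycle genes held fewer CHR matches: 51.7% of windows for other spindle, midbody and kinesin genes, 35% for other mitotic kinases, 19.4% for DNA replication genes and 10.5% for G1 cyclins and CDK inhibitors. CCAAT boxes were spread more widely, and 64.5% of the replication genes' windows held a box.

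Within the group, the motifs divided the genes only loosely by their change. Among the 33 genes with a CHR in a window, 10 fell, 1 rose and the median change was -0.10; among the 8 with none, 2 fell, 2 rose and the median was -0.03. Of the 3 genes that rose, Mad2l1 and Nuf2 had neither motif in the window and Cenpa had both. Birc5 and Nusap1, which did not pass, and Pttg1, which fell, also had neither. Cdk1, Ccnb2, Bub1 and Ttk hold a CHR and at least 2 CCAAT boxes, as Ube2c and Cdc20 do, and did not pass. A match in these letters is not evidence of binding, and a window without one says nothing about the factor.

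**Figure D2:**
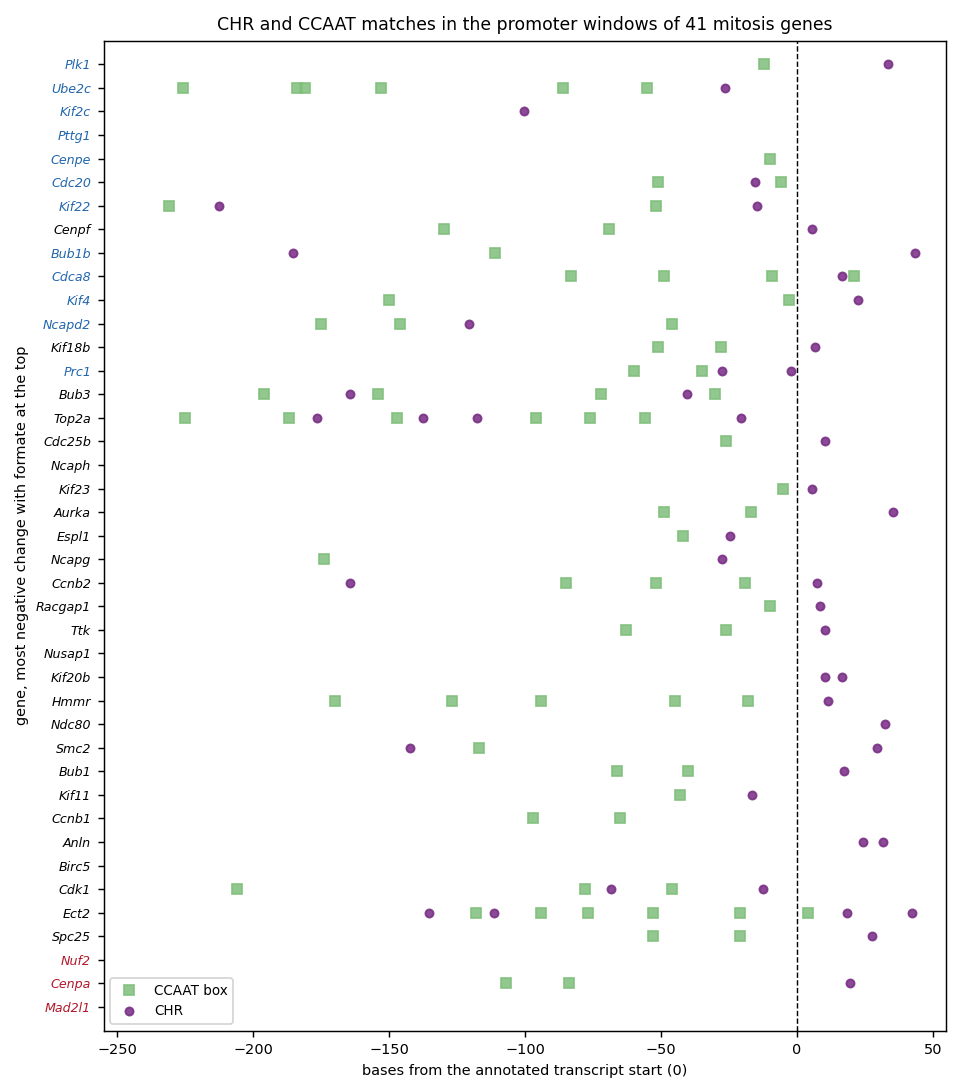
Midpoints of CHR matches (circles) and CCAAT boxes (squares) in the promoter windows of 41 genes, by distance in bases from the annotated start (horizontal axis). Genes run down the page by their paired log2 change, most negative at the top. Blue names fell and red names rose. Sites of Bub3, Ect2 and Prc1 are drawn once for each of their overlapping windows. Most CHR matches lie close to the start, with CCAAT boxes mainly upstream, and Mad2l1 and Nuf2 at the foot have neither.

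Among the 8 kinases, cyclins and phosphatases of mitotic entry, 2 fell and 6 did not pass, with a median paired change of -0.10. Plk1 encodes Polo-like kinase 1, which drives centrosome maturation, mitotic entry and the later steps up to cytokinesis. It had 106.7, 113.8, 148.4 and 139.9 CPM in formate libraries 1 to 4, against 134.8, 155.9, 182.1 and 171.9 CPM in control libraries 1 to 4. Each formate library lay below its neighbour, but the groups overlapped, because libraries 3 and 4 of both groups ran above libraries 1 and 2. The paired log2 change was -0.35 ± 0.045 (SE, adjusted p = 0.00124), a fold of 0.787 and the largest decrease of the 49 in this fit (with offsets for GC content, Ncapg was as low), while the unpaired fit gave -0.34 with an unadjusted p of 0.0359.

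Ccna2, the cyclin A of S phase and early mitosis, had 207.3, 220.1, 255.3 and 248.9 CPM in formate libraries, against 246.7, 267.4, 284.7 and 296.0 CPM in control libraries. It too was lower in 4 of 4 pairs with overlapping groups, and its paired change was -0.23 ± 0.044 (adjusted p = 0.00475). The B cyclins and their kinase did not pass, and whether they differ from Ccna2 was not tested. Ccnb1, the main cyclin of mitotic entry, averaged 204.0 ± 12.7 CPM with formate and 203.8 ± 6.92 CPM without, a paired change of 0.00 ± 0.044 (adjusted p = 0.998). Cdk1, the kinase it activates, averaged 202.2 ± 15.3 CPM with formate and 198.0 ± 13.6 CPM without, at 0.03 ± 0.045 (adjusted p = 0.712). For both, the pairs pointed in either direction. Ccnb2 averaged 97.6 ± 12.4 CPM with formate and 104.3 ± 20.01 CPM without (-0.08, adjusted p = 0.313).

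Aurka, the Aurora kinase of centrosomes and spindle poles, had 95.8, 110.2, 110.5 and 112.8 CPM in formate libraries, against 114.8, 117.1, 110.6 and 117.0 CPM in control libraries. It was lower in 4 of 4 pairs, by almost nothing for codes 1 and 2, and did not pass (-0.10 ± 0.049, adjusted p = 0.195). The phosphatases that activate CDK1 were not called either: Cdc25b had a paired change of -0.12 (adjusted p = 0.098) and Cdc25c one of -0.10 (adjusted p = 0.451).

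Of the 9 checkpoint and APC/C genes, 4 fell, 1 rose and 4 did not pass, with a median of -0.14. Ube2c, the ubiquitin-conjugating enzyme that starts chains for the APC/C, had 133.0, 152.0, 183.3 and 173.2 CPM in formate libraries, against 168.4, 186.5, 202.4 and 207.9 CPM in control libraries. Its paired change was -0.26 ± 0.046 (adjusted p = 0.00416), lower in 4 of 4 pairs. Cdc20, the mitotic activator of the APC/C, had 140.5, 169.4, 216.4 and 195.8 CPM in formate libraries, against 169.9, 202.2, 233.2 and 231.4 CPM in control libraries. The spread between library sets (libraries 1 and 2 against 3 and 4) was wider than the step within any pair, and the paired change was -0.22 ± 0.045 (adjusted p = 0.00731).

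Pttg1, the securin that the APC/C destroys to free separase, was a low transcript, at 19.1 ± 1.68 CPM with formate and 22.7 ± 4.09 CPM without. Its paired change was -0.24 ± 0.072 (adjusted p = 0.0399), although codes 1 and 2 differed by 0.00 on the log2 scale. Bub1b, which encodes the checkpoint protein BUBR1, averaged 141.3 ± 19.1 CPM with formate and 162.5 ± 13.8 CPM without (-0.21 ± 0.051, adjusted p = 0.0167).

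Mad2l1 moved the other way. It encodes MAD2, the checkpoint protein that binds and holds CDC20. Formate libraries had 202.6, 212.1, 140.8 and 171.5 CPM, against 171.5, 157.3, 124.9 and 150.4 CPM in control libraries. It was higher in 4 of 4 pairs, by most for codes 13 and 14, with a paired change of 0.26 ± 0.049 (adjusted p = 0.00512), a fold of 1.20 and the largest increase of the 49 in this fit. With offsets for GC content it stood at 0.16 and did not pass (adjusted p = 0.0556). The groups overlapped and the unpaired p was 0.108 before adjustment. The other checkpoint genes did not pass: Bub1, a kinetochore kinase, at 0.00 ± 0.045 (adjusted p = 0.99), Ttk, the MPS1 kinase, at -0.07 ± 0.064 (adjusted p = 0.502), and Bub3 at -0.14 (adjusted p = 0.064). Espl1, which encodes separase, stood at -0.10 (adjusted p = 0.181).

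The chromosomal passenger complex corrects faulty attachments of chromosomes to the spindle and later marks the site of division. Of its 4 genes 3 fell and 1 did not pass, with a median of -0.16. Cdca8, which encodes the subunit borealin, had 103.0, 107.1, 120.3 and 110.6 CPM in formate libraries, against 119.0, 123.0, 133.1 and 132.6 CPM in control libraries. Only formate library 3 reached into the control range, and the paired change was -0.20 ± 0.044 (adjusted p = 0.00854). Incenp, the scaffold subunit, averaged 222.9 ± 29.3 CPM with formate and 251.0 ± 20.7 CPM without (-0.18 ± 0.046, adjusted p = 0.0214). Aurkb, the kinase of the complex, averaged 145.7 ± 7.43 CPM with formate and 161.2 ± 14.8 CPM without (-0.14 ± 0.045, adjusted p = 0.0452). Birc5, which encodes survivin, had 165.4, 177.9, 143.2 and 160.9 CPM in formate libraries, against 177.0, 164.4, 138.5 and 164.0 CPM in control libraries. It was lower in 2 pairs and higher in 2, with a paired change of 0.01 ± 0.047 (adjusted p = 0.918). Survivin thus did not pass in a complex whose other transcripts did; whether it differs from them was not tested.

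Centromere and kinetochore genes were the role with the most mixed signs, with 1 that fell, 2 that rose and 4 that did not pass, and a median of 0.00. Cenpa encodes the histone H3 variant that marks centromeres. It had 228.2, 221.9, 148.4 and 169.3 CPM in formate libraries, against 209.3, 179.4, 133.3 and 147.1 CPM in control libraries. It was higher in 4 of 4 pairs, with a paired change of 0.20 ± 0.046 (adjusted p = 0.0122). Its libraries with codes 10 to 14 all lay above those with codes 1 to 8, at means of 209.7 and 149.5 CPM, so that the library sets differed more than the treatment groups did.

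The NDC80 complex links kinetochores to microtubules and has 4 subunits. Nuf2 had 92.6, 94.95, 70.9 and 83.1 CPM in formate libraries, against 84.3, 82.0, 63.3 and 74.8 CPM in control libraries, and rose in the paired fit (0.17 ± 0.045, adjusted p = 0.026), but not with offsets for GC content (0.09, adjusted p = 0.203). Spc25 was higher in 4 of 4 pairs as well, at 0.13 ± 0.055, without passing (adjusted p = 0.131). Ndc80 averaged 80.9 ± 7.47 CPM with formate and 83.2 ± 16.6 CPM without (-0.02 ± 0.057, adjusted p = 0.819), and Spc24 stood at 0.00 (adjusted p = 0.967). Of the 2 large outer kinetochore proteins, Cenpe, a plus-end-directed kinesin, fell: it averaged 94.6 ± 16.7 CPM with formate and 110.2 ± 16.6 CPM without (-0.22 ± 0.052, adjusted p = 0.0121). Cenpf averaged 72.9 ± 13.9 CPM with formate and 83.9 ± 10.1 CPM without, and its change was uneven over the pairs, from -0.47 for codes 13 and 14 to 0.01 for codes 7 and 8 (-0.21 ± 0.075, adjusted p = 0.0936).

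Spindle motors and assembly factors fell in 4 of 8 cases, with none higher and a median of -0.17, the most negative of the 7 roles. They also held 3 of the 5 genes whose groups did not overlap: Tpx2, Kif22 and Kif2c, beside Prc1 and Ncapd2 in other roles. All 5 were lower with formate, as 1.85% of all tested genes were with groups that did not overlap; none was higher, where 2.44% of tested genes were. Tpx2, which activates Aurora A and nucleates spindle microtubules, had 192.6, 197.9, 233.1 and 229.0 CPM in formate libraries, against 239.2, 251.4, 253.6 and 256.9 CPM in control libraries. Its paired change was -0.24 ± 0.048 (adjusted p = 0.00709).

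Kif2c, a kinesin that takes microtubules apart at centromeres, had 63.3, 71.9, 82.8 and 74.25 CPM in formate libraries, against 84.6, 85.95, 88.2 and 87.0 CPM in control libraries. The control libraries lay within a few CPM of each other and the formate libraries spread below them (-0.25 ± 0.053, adjusted p = 0.00889). Kif22, a motor that pushes chromosome arms towards the spindle equator, had 93.9, 101.4, 106.9 and 103.2 CPM in formate libraries, against 122.3, 120.4, 109.4 and 118.0 CPM in control libraries. The step was wide for codes 10 and 11 and narrow for codes 1 and 2 (-0.21 ± 0.053, adjusted p = 0.0177). Kif4, a chromosome-bound kinesin, showed the most even change of the group, between -0.21 and -0.17 in the 4 pairs (-0.19 ± 0.044, adjusted p = 0.0128).

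Kif11, the motor that pushes spindle poles apart, had 132.2, 130.6, 134.3 and 130.6 CPM in formate libraries, against 139.7, 137.1, 126.6 and 125.2 CPM in control libraries. The formate libraries were nearly level and the pairs divided evenly by sign (0.00 ± 0.046, adjusted p = 0.99). Hmmr, Nusap1 and Kif18b, which shape or bundle spindle microtubules, did not pass, with paired changes of -0.04, -0.06 and -0.15.

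**Figure D3:**
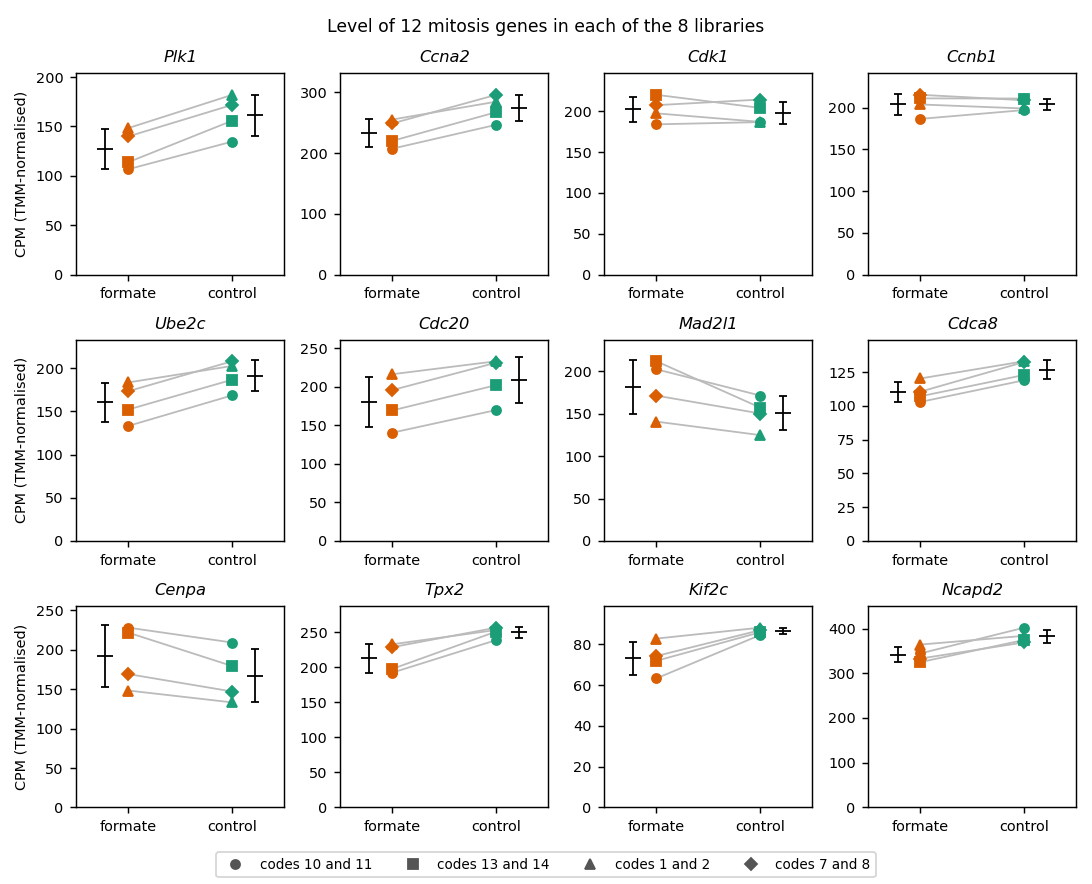
TMM-normalised CPM of 12 of the genes in each library (vertical axes, from 0), formate libraries on the left and control libraries on the right of each panel. Grey lines join neighbouring codes, and black bars give the mean ± SD of 4 libraries. Plk1, Ccna2, Ube2c, Cdc20 and Tpx2 lie lower with formate in each pair, Mad2l1 and Cenpa lie higher, and the lines of Cdk1 and Ccnb1 run in both directions.

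In the central spindle and cytokinesis role 2 of 7 genes fell and 5 did not pass, with a median of -0.08. Prc1, which bundles the microtubules of the central spindle, had 100.2, 105.9, 109.2 and 109.8 CPM in formate libraries, against 115.6, 121.0, 119.3 and 114.5 CPM in control libraries. Its groups did not overlap, and its paired change was -0.15 ± 0.045 (adjusted p = 0.0419). Kif20a, a kinesin that carries the passenger complex to the central spindle, averaged 157.2 ± 23.7 CPM with formate and 176.5 ± 19.2 CPM without (-0.17 ± 0.049, adjusted p = 0.0317). Kif23 and Racgap1, partners in centralspindlin, were both lower in 4 of 4 pairs without passing (-0.12, adjusted p = 0.0978, and -0.08, adjusted p = 0.235). Anln, which encodes anillin of the contractile ring, had 38.35, 41.6, 41.4 and 40.6 CPM in formate libraries, against 40.05, 39.8, 40.9 and 40.2 CPM in control libraries (0.01 ± 0.054, adjusted p = 0.934). Ect2, the exchange factor that activates RhoA at the division site, stood at 0.04 (adjusted p = 0.658), and Kif20b at -0.05 (adjusted p = 0.541).

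Of the condensin and topoisomerase genes 1 of 6 fell and 5 did not pass, with a median of -0.11. Ncapd2, a regulatory subunit of condensin I, had 344.3, 324.9, 364.2 and 332.9 CPM in formate libraries, against 402.0, 374.6, 383.7 and 369.1 CPM in control libraries. The groups did not overlap, with a narrow gap between formate library 3 and control library 4, and the paired change was -0.16 ± 0.045 (adjusted p = 0.0271). The other condensin I subunits Ncapg and Ncaph stood at -0.10 (adjusted p = 0.152) and -0.12 (adjusted p = 0.123); with offsets for GC content Ncapg passed, as described below. The ATPase subunits that condensins I and II share did not pass: Smc2 averaged 229.6 ± 21.3 CPM with formate and 230.2 ± 7.83 CPM without (-0.01 ± 0.049, adjusted p = 0.935), and Smc4 averaged 446.5 ± 15.9 CPM with formate and 429.6 ± 21.97 CPM without (0.06 ± 0.045, adjusted p = 0.449). Top2a, the topoisomerase that untangles sister chromatids, had 923.3, 924.6, 1033 and 972.4 CPM in formate libraries, against 1081, 1067, 1064 and 1012 CPM in control libraries. It was lower in 4 of 4 pairs and did not pass (-0.13 ± 0.050, adjusted p = 0.0873).

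Summed by role, most of the 7 groups were lower with formate. The mitotic entry genes summed to 1058 ± 48.8 CPM with formate and 1150 ± 30.2 CPM without, the passenger complex to 640.6 ± 22.4 CPM with formate and 700.1 ± 14.7 CPM without, and the spindle motors and assembly factors to 933.4 ± 37.7 CPM with formate and 1030 ± 25.6 CPM without. These 3 sums were lower with formate in 4 of 4 pairs, as were those of the checkpoint genes and of condensin with topoisomerase. Central spindle and cytokinesis genes summed to 724.2 ± 39.4 CPM with formate and 773.1 ± 21.2 CPM without, lower in 3 of 4 pairs. Centromere and kinetochore genes summed to 639.0 ± 33.9 CPM with formate and 630.3 ± 53.1 CPM without, higher in 3 of 4 pairs. Per kilobase of the principal transcript, Top2a was the most abundant of the 49, at 184.5 CPM per kb with formate and 202.3 CPM per kb without, followed by Ube2c and Birc5, and Cenpf was the least, at 6.55 CPM per kb with formate and 7.53 CPM per kb without. Genes that fell stood at both ends of this order of levels, from Ube2c at the second place to Cenpe at the 45th.

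Some of these genes also differed between the library sets, at shares near or below those of all tested genes. In 9 of the 49 genes all 4 libraries with codes 10 to 14 lay above all 4 with codes 1 to 8, where 16% of tested genes did, and in 2 they lay below, where 17.9% did. Besides Cenpa, the 9 included Ccnb2 (113.3 CPM in codes 10 to 14 and 88.6 CPM in codes 1 to 8), Cdc25b, Ndc80, Nusap1 and Bub1; the 2 were Kif23 and Bub3. Cenpa was the only one of these 11 genes to pass the paired test of formate. Fitted within each set alone, the median formate change of the 49 genes was -0.15 for codes 10 to 14 and -0.05 for codes 1 to 8. In 6 genes (Cdc25c, Ndc80, Nusap1, Kif11, Kif20b and Smc2) both pairs with codes 10 to 14 were lower and both with codes 1 to 8 higher, as in 621 of the 13299 tested genes; the opposite pattern was seen in 0 of the 49 and 397 of the 13299. The test of the difference between sets called no gene in 13299 (154 had an unadjusted p under 0.05), and the smallest unadjusted p among the 49 was 0.0591, for Cdc25c.

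The change followed the base composition of the transcripts, in the mitotic genes as in the rest. Over all genes, those lower with formate in the paired fit had a median transcript GC content of 53.1%, those higher 44.8%, and all tested genes 50.0%. Of the 25 mitotic genes with the higher GC content (47.3% to 56.1%), 13 fell and 1 rose, with a median change of -0.15. Of the 24 with the lower (36.5% to 47.1%), 4 fell and 2 rose, with a median of -0.05. The shares of all tested genes that fell or rose in these GC ranges are not given here, so these counts cannot be set against them. Within each of 5 ranges of GC content the median of the mitotic genes lay below that of all tested genes, at 0.00 against 0.14 up to 42% GC and at -0.16 against -0.05 above 54%. When the paired fit carried offsets for GC content, 23 of the 49 genes passed, 22 lower and 1 higher, where the fit without offsets had 17 lower and 3 higher. The share of all tested genes that passed with the offsets is not given here. Of the 20 called without offsets, 17 still passed. Mad2l1, Nuf2 and Aurkb (-0.13, adjusted p = 0.0569) did not, while Top2a (-0.19, adjusted p = 0.0169), Ncapg, Cenpf, Bub3, Kif20b and Kif23 passed as lower. Ncapg, whose transcripts have the lowest GC content of the 49, moved most: it stood at -0.32 (adjusted p = 0.00164) with the offsets, as low as Plk1 at -0.32, against -0.10 without them. Kif20b stood at -0.22 (adjusted p = 0.016) with the offsets and at -0.05 without. The direction of the increase in Mad2l1 and Nuf2 held under these offsets, but not the call; Cenpa passed with and without them.

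**Figure D4:**
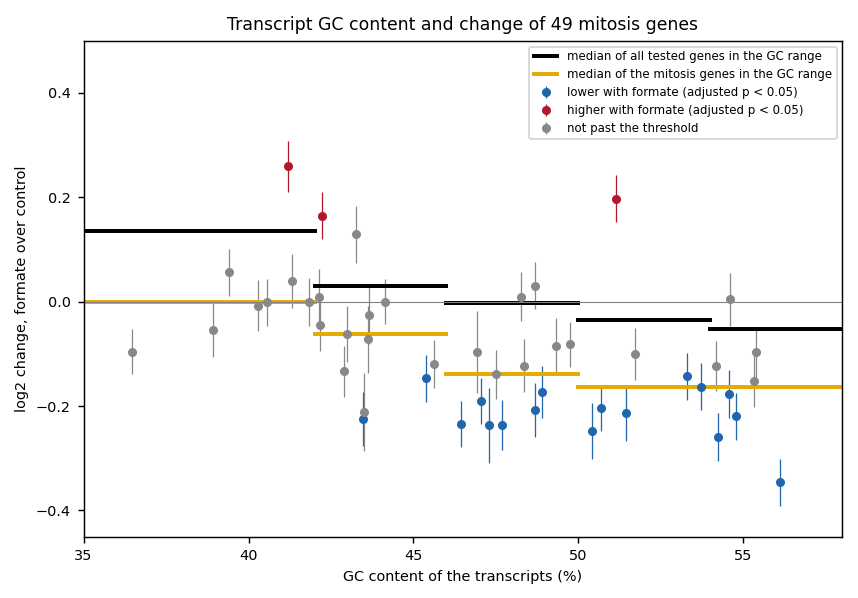
Paired log2 change of the 49 genes (vertical axis, points ± standard error, coloured by call) against the GC content of their transcripts in percent (horizontal axis). Horizontal lines give, for 5 ranges of GC content, the median of all tested genes (black) and of the mitotic genes (yellow). Both lines step downwards to the right, and the yellow lies below the black in each range.

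Fewer mitotic genes passed when a pair was left out of the paired fit. Each such fit also has fewer libraries, and the part of this in the lower counts was not tested. With 1 pair left out, 13 mitotic genes passed without codes 10 and 11, 7 without codes 13 and 14, 8 without codes 1 and 2 and 11 without codes 7 and 8. The share of all tested genes that passed in these fits is not given here, so the counts cannot be set against it. Plk1, Ccna2, Ube2c and Cdc20 passed in all 10 alternative paired fits, which left out each pair in turn or changed the scaling, the filter, the test or the GC term; their largest adjusted p over these was 0.0428, that of Cdc20. Mad2l1, Tpx2 and Kif2c passed in 9 of the 10. Kif22, Bub1b and Cenpa passed in 7, and Aurkb and Pttg1 in 3. All 20 called genes kept their sign in all 10.

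**Figure D5:**
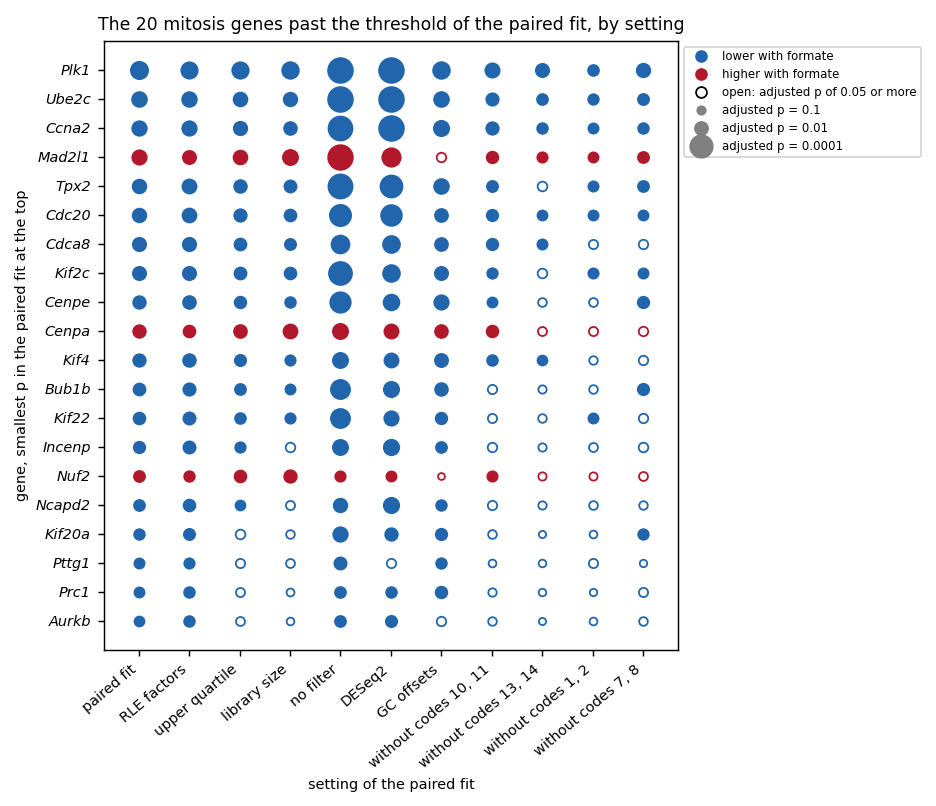
Adjusted p of the 20 called genes (rows, smallest p at the top) in the paired fit and its 10 alternatives (columns). Larger circles stand for smaller adjusted p, filled circles passed the threshold of 0.05, and colour gives the direction. Plk1, Ube2c, Ccna2 and Cdc20 are filled in every column, and the columns that leave out a pair have the most open circles.

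Neighbouring parts of the cell cycle programme were read from lists of genes that are not among the 49. Of all tested genes 7.52% fell and 5.35% rose, and several of the counts below lie near those shares. Of 19 other mitotic kinases and regulators, 5 fell, 1 rose and 13 did not pass. Nek2, a centrosome kinase, averaged 26.6 ± 5.01 CPM with formate and 32.9 ± 4.37 CPM without (-0.32 ± 0.062, adjusted p = 0.00577), and Ccnf and Melk fell by 0.21 and 0.21 on the log2 scale. Of 17 APC/C subunits and partners 3 fell and none rose, among them Anapc5 (-0.20 ± 0.047, adjusted p = 0.0145) and the late mitotic activator Fzr1. Of 34 other checkpoint, centromere and kinetochore genes 2 fell and 3 rose: Mad1l1, the partner of MAD2, stood at -0.30 ± 0.061 (adjusted p = 0.00748), while Cenpi rose by 0.20. Of 29 other spindle, midbody and kinesin genes 3 fell and 1 rose, with Kifc1, Numa1 and Haus2 leading by p. Of 17 cohesin and condensin II genes 3 fell and none rose, all 3 of cohesin: Smc1a (-0.24 ± 0.047, adjusted p = 0.0064), Smc3 and Stag1.

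Of 15 genes for MuvB, B-MYB, FOXM1 and related factors, 2 fell and none rose: Mybl2, which encodes B-MYB, averaged 102.5 ± 16.0 CPM with formate and 116.9 ± 19.97 CPM without (-0.19 ± 0.045, adjusted p = 0.0154), and E2f4 stood at -0.14 ± 0.043 (adjusted p = 0.0395). Of 34 DNA replication genes 11 fell and 2 rose, with a median of -0.08; Lig1, the ligase that joins Okazaki fragments, averaged 251.6 ± 17.7 CPM with formate and 311.9 ± 21.4 CPM without (-0.31 ± 0.057, adjusted p = 0.00477), and Mcm3 and Pola1 followed at -0.22 and -0.26. Of 15 G1 cyclins, CDKs and CDK inhibitors 1 fell and 2 rose: Ccnd3 averaged 302.5 ± 11.4 CPM with formate and 375.4 ± 5.86 CPM without (-0.31 ± 0.045, adjusted p = 0.00173), and Ccne2 and Cdkn1b rose by 0.27 and 0.22. None of these listed genes passed in the unpaired fit.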

How the data were processed

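The 8 libraries were polyA-selected, stranded and sequenced as paired 58 bp reads, per the labels' protocols. The submitters' processing notes name Trimmomatic, MultiQC, kallisto, GRCm38 and mm10. The release of the transcriptome, the filters and how strand was set are not given in those sources. The authors deposited 1 table of estimated counts, that is expected counts per gene summed from transcripts, which are not normalised. Of its non-zero values 56.7% were not whole (tolerance 1e-06), and all were rounded before testing. Reads of near-identical copies are divided by the estimate, and since the strand setting is unknown, overlapping and antisense genes cannot be told apart. The 8884 genes that carry no symbol stayed in under their identifiers.

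Counts were tested in edgeR 4.0.16 (R 4.3.3): filterByExpr, TMM scaling, robust quasi-likelihood test and Benjamini-Hochberg adjustment over 13299 genes, with a threshold of 0.05. CPM values are TMM-normalised and changes by pair use log2(CPM + 0.5). Replicates were numbered in accession order. Whether they are separate animals or cultures is not stated, and p-values then reflect only how these samples vary, which may be technical. No 2 libraries of a group agreed within sampling noise (chi-square of at least 22.0 per degree of freedom). The planned fit has no pairs. The paired fit was set beside it because the deviations of neighbouring codes from their group means correlated over 0.1 in every pair: codes 10 and 11 gave 0.789, codes 13 and 14 gave 0.468, codes 1 and 2 gave 0.794 and codes 7 and 8 gave 0.511. Non-neighbours of the same library set reached 0.365 to 0.480, so for codes 13 and 14 and 7 and 8 the correlation stood little above that within a set, and libraries of different sets ran from -0.736 to -0.313.

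GENCODE M21 (GRCm38) gave GC content over all bases of a gene's transcripts and the principal transcript's length; promoter windows are from RefSeq (GRCm38.p6), and both strands were searched. The fits were checked on simulated data. An effect of each pair was built into those data, so the check cannot show whether the pairing holds for these libraries. Named genes are a panel over the roles, every gene past the threshold in either fit, every gene whose groups do not overlap, the 3 largest changes in each direction, and up to 3 called genes of each other list by smallest p; Cdc25b, Ccnb2, Nusap1, Kif20b and others were added once their values were known. The 49 genes, the other lists and the tests were chosen with earlier results of these data known. Hjurp, Lin54, Trac and Hbb-bs of the lists were not analysed here. Alternatives were other scalings (RLE, upper quartile, library size), no filter, DESeq2 1.42.0, a library-set covariate, GC offsets (loess, span 0.3), each set alone, and each library or pair left out.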

Additional observations from a re-analysis of the deposited data

Results flagged for a closer look

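Of 100 sets of 4 libraries (49 genes and their summed level, in each group), 5 held a library whose gap to the nearest of the others, divided by the range of the 4, exceeded Dixon's critical value for 4 values. Chance flags about 1 in 20 such sets. Formate library 1 stood apart in 3 of them: for Aurka at 95.8 CPM, below 110.2 to 112.8 CPM in the other formate libraries (ratio 0.846), for Ect2 at 76.8 CPM, above 74.7 to 75.1 CPM (0.842), and for Ncapg at 114.5 CPM, above 104.7 to 106.4 CPM (0.83). Control library 3 stood apart in 2: for Spc25 at 31.2 CPM, below 38.1 to 39.0 CPM in the other control libraries (0.879), and for Smc2 at 241.8 CPM, above 224.8 to 227.4 CPM (0.846). None of these 5 genes passed in either fit. Without formate library 1 and its neighbour, control library 1, the paired change of Aurka was -0.05 (adjusted p = 0.531), against -0.10 with them.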

How the results depend on the processing

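With the replicate block (the pairs of neighbouring codes), 20 of the 49 mitotic genes passed, against 0 in the fit without pairs, which also called 0 of them under each of its 16 other alternatives (smallest adjusted p 0.197). With a pair left out, the paired fit called between 7 and 13. Other scalings, no filter, DESeq2 and GC offsets gave 14 to 24. The shares of all tested genes called in these alternatives are not given here. The median change of the 49 genes kept its sign in every setting, from -0.15 with codes 10 to 14 alone to -0.05 with codes 1 to 8 alone. In the paired fits 38 of the 49 genes kept their sign, the 20 called genes among them; the 11 others were not called and lay between -0.06 and 0.06. With RLE factors, without the filter, in DESeq2 and with GC offsets, Ccnb1 changed to -0.00723, -0.00919, -0.00719 and -0.0397. In the first 3 of these Spc24 changed to -0.00289, -0.00499 and -0.00294. Anln reached -0.000564 without the filter. GC offsets gave -0.0680 for Anln, -0.00714 for Birc5, -0.0586 for Ect2 and -0.0944 for Smc4. Upper quartile factors and library size alone gave Bub1 0.0193 and 0.0348, Kif11 0.0192 and 0.0347, and Smc2 0.0125 and 0.0280, and library size gave Ndc80 0.0113. With a pair left out, values ran from -0.0111 to 0.0265 for Ccnb1, -0.0197 to 0.0220 for Bub1, -0.0248 to 0.0455 for Birc5, -0.0626 to 0.0488 for Ndc80, -0.0175 to 0.0525 for Spc24, -0.0217 to 0.0248 for Kif11, -0.0973 to 0.0132 for Nusap1, -0.00944 to 0.0323 for Anln, -0.00341 to 0.0763 for Ect2 and -0.0445 to 0.0314 for Smc2. The cause was not tested. Scaling moved the median of all genes between -0.02 (GC offsets) and 0.03 (library size), so changes of that size in a single gene cannot be read.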
